A study of Mus musculus with 16 samples.

Results

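The major urinary protein (Mup) genes described here are Mup3, Mup5, Mup7, Mup10, Mup11, Mup14, Mup16, Mup17, Mup20 and Mup21. They are 10 of the 48 rows that carry a Mup symbol among 47729 gene rows, and they were chosen by symbol after earlier results of these data were known. Major urinary proteins are small lipocalins, barrel-shaped carriers that hold volatile odorants. Hepatocytes secrete them into the blood, from where they pass into the urine and serve as scent marks, and their transcription in the liver follows growth hormone and androgens, so that male mice make more of them. The genes lie in a cluster of recent duplicates, in which a central set of near-identical copies is flanked by more diverged ones.

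RNA was sequenced from hepatocytes, endothelial cells (ECs), hepatic stellate cells (HSCs) and Kupffer cells of unchallenged adult livers, in 16 libraries with 2 for each cell type and genotype label. Mice of the KO label carried Zeb2 alleles with a floxed exon 7 and the tamoxifen-inducible, endothelium-restricted Cdh5-CreERT2 driver on an R26R CAG-eGFP reporter background, and the WT label marks their littermates without Cre. Both received 2 mg tamoxifen per day for 5 days, and the methods name 8-week-old males and RNA taken 2 weeks after tamoxifen unless stated otherwise. Hepatocytes were separated by centrifugation. The other cells were sorted, HSCs by their UV autofluorescence and, among cells without it, ECs by the Pan-endo antigen and Kupffer cells by F4/80.

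Between 12872706 and 15690506 reads per library fell on genes, so that 3 counts, taken as the smallest level that can be shown, correspond to 0.191 to 0.233 CPM (a gene's reads scaled to a common library total of reads on genes). The markers of each cell type were highest in its own libraries. Zeb2, counted over the whole gene and not over the floxed exon alone, stood at 106 and 106 CPM in the WT-labelled and at 199 and 130 CPM in the KO-labelled EC libraries. It was not lower under the KO label, and the groups are therefore called by their labels. The authors report that Zeb2 was efficiently deleted in ECs, both at the mRNA level and by the share of recombined ECs. The sources used here do not say which libraries share a liver, and p-values measure the spread between these libraries, with n = 2 per group throughout.

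All 10 genes are protein coding, lie on the minus strand and fall between chr4:60066469-62150863 (GRCm38), a span of 2084 kb, and no other annotated gene overlaps them. How well reads can tell them apart differs from gene to gene. Over every stretch of 50 bases in the annotated transcripts, 86.7% of those of Mup3, 82.9% of those of Mup5 and 80.7% of those of Mup21 occur in that gene alone. For Mup20 the share was 49.5%, with most of the remainder found also in the pseudogene Mup-ps19. The other 6 genes, Mup7, Mup10, Mup11, Mup14, Mup16 and Mup17, had between 8.29% (Mup16) and 23.5% (Mup10) of their stretches to themselves. Their coding sequences differ from each other at 4 to 9 of 540 bases (98.3% to 99.3% identity), whereas Mup3 is nearest to Mup21 at 95.4%, Mup20 to Mup11 at 91.3% and Mup5 to Mup20 at 91.1%. The counter listed a number of reads as not uniquely aligned, and whether such reads were also added to genes is not given in the sources used here. The counts of these 6 genes are therefore uncertain.

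The most variable window of 60 coding bases shows both kinds of member. At 21 of its 60 positions the 10 genes do not all carry the same base, and capitals mark bases that differ from the most common base among the 10. At the last 2 positions each base is carried by 5 of the 10 genes, and there the base later in the alphabet is in capitals. It lies at chr4:62086873-62086932 in Mup3, at chr4:62150268-62150327 in Mup21, at chr4:61834628-61834687 in Mup5, at chr4:62053553-62053612 in Mup20, at chr4:61595266-61595325 in Mup17 and at chr4:60581594-60581653 in Mup10, each on the minus strand and written 5′ to 3′.
Mup3: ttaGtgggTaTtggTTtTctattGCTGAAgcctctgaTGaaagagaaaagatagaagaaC
Mup21: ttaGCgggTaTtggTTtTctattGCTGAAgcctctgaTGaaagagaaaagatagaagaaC
Mup5: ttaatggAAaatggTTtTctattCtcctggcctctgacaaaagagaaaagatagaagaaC
Mup20: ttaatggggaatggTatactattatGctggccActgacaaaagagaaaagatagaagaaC
Mup17: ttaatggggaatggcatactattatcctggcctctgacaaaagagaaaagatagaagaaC
Mup10: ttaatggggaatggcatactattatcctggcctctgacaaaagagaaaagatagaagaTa
Mup11 and Mup14 carry the same 60 bases as Mup10, so that a read inside this window cannot be given to any of these 3 genes. Mup3 has 15 capitals, Mup21 16 and Mup5 7, the final C included in each.

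A further window is shown because the results below turn on Mup5. It is the 60-base window with the most bases particular to that gene, at chr4:61835039-61835098 in Mup5 and chr4:60582005-60582064 in Mup10, again on the minus strand. Here capitals mark bases that no other of the 10 genes carries at that position.
Mup5: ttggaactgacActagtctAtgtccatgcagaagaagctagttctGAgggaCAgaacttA
Mup10: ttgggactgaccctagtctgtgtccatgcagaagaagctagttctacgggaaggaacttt
Mup11, Mup16 and Mup17 have the bases of Mup10 here, and Mup5 has 7 bases that are its own. Over 100 bases, 98.7% of the stretches of Mup5 occur in no other annotated gene.

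In hepatocytes Mup3 was by far the most abundant of the 10 genes. Levels were compared per length, in TPM (counts divided by the annotated exon length and scaled to a common library total). Mup3 reached 13362 and 14773 TPM in the WT-labelled libraries 29 and 33 and 16537 and 8612 TPM in the KO-labelled libraries 25 and 41. It made up 56.6% to 75.0% of the summed TPM of the 10 genes and ranked between 6 and 15 among all genes of the library. No other member went above 2968 TPM in any of the 4 libraries.

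Mup17 came next with a mean of 2237 TPM (SD 818, n = 4), followed by Mup7 at 1384 (SD 651). Mup10 had 909 TPM (SD 100), Mup21 868 (SD 322) and Mup20, whose product darcin is the pheromone by which male urine attracts females, 828 (SD 651). Mup14 followed at 514 TPM (SD 331), then Mup5 at 448 (SD 538), Mup11 at 176 (SD 209) and Mup16 at 54.2 (SD 36.7). From Mup7 down, neighbours in this order differed by less than the larger of their SDs, and Mup7 was above Mup17 in library 25 (1337 against 1081 TPM). The order of the lower ranks changed from library to library, since Mup5 was the lowest in libraries 29 and 25 and at rank 3 of the 10 in library 41. The counts of the near-identical genes share the uncertainty given above, and Mup3, Mup5 and Mup21 are the members whose order rests on sequence of their own.

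**Figure D1:**
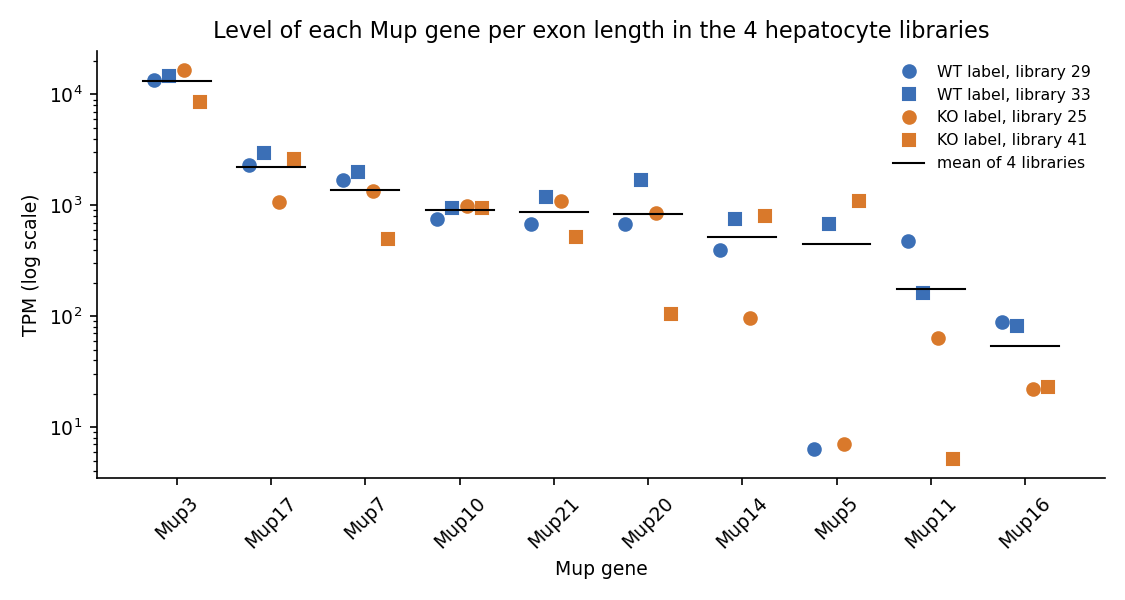
TPM (log axis) of each Mup gene in the 4 hepatocyte libraries, with colours for the label, shapes for the library and a bar at the mean of the 4. Mup3 stands above all others in each library, while Mup5 lies at 6.42 and 7.05 TPM in libraries 29 and 25 and at 674 and 1103 TPM in libraries 33 and 41.

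The sum of the 10 genes was 9545 and 11969 CPM in the WT-labelled and 10314 and 7427 CPM in the KO-labelled hepatocyte libraries, which is between 0.743% and 1.2% of the reads on genes. The 10 genes held 63.9% to 84.3% of the reads on all rows of the family there. Of the other 38 rows, 16 had at least 10 counts in a hepatocyte library, namely the genes Mup13, Mup6, Mup12, Mup1, Mup9, Mup4, Mup2, Mup15 and Mup18 and the pseudogenes Mup-ps22, Mup-ps18, Mup-ps21, Mup-ps17, Mup-ps20, Mup-ps13 and Mup-ps7. A further 22 stayed under 10 counts, and 10 of these were at 0 in all 16 libraries. Reads that the counter listed as not uniquely aligned amounted to 38.2% to 47.9% of the hepatocyte libraries and to 24.8% to 30.1% of the other 12. How many of them came from Mup transcripts was not tested.

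Mup5 differed between hepatocyte libraries in a way that the label did not follow. It had 41 counts (2.61 CPM) in WT library 29 and 4158 (284 CPM) in WT library 33. Under the KO label it had 45 counts (2.90 CPM) in library 25 and 7013 (473 CPM) in library 41. Each label thus held a low and a high library, 109 times apart in WT and 163 times apart in KO, while Mup3 differed by 1.14 and 1.84 times between the same libraries. Mup11 and Mup14 also spread widely. Mup11 stood at 329 and 117 CPM in WT and at 44.7 and 3.77 CPM in KO, and Mup14 at 243 and 479 CPM in WT and at 59.2 and 510 CPM in KO. Mup20 was at 275 and 709 CPM in WT and at 353 and 45.2 CPM in KO. Mup10, in contrast, stayed between 465 and 610 CPM in all 4 libraries.

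**Figure D2:**
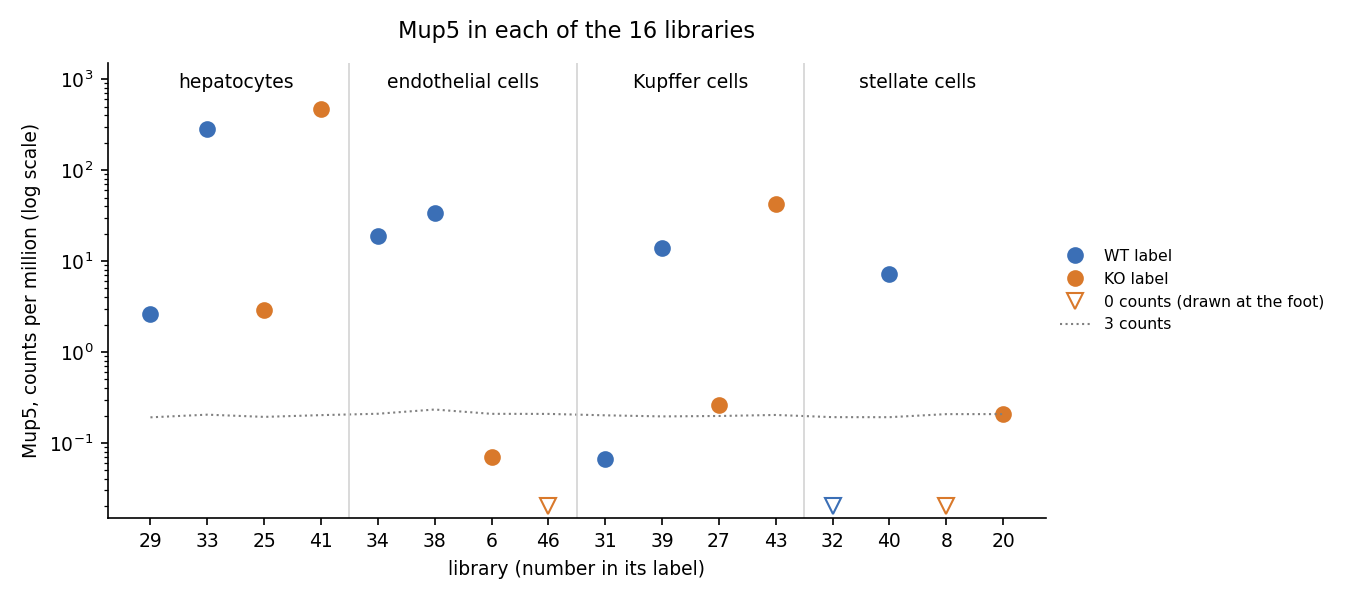
Mup5 in CPM (log axis) in each of the 16 libraries, grouped by cell type and coloured by label; the dotted line is the level of 3 counts, and open triangles are libraries with 0 counts. Hepatocytes and Kupffer cells each have a high and a low library under both labels, while in ECs both WT-labelled libraries (268 and 432 counts) are high and both KO-labelled ones (1 and 0 counts) are not.

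No member passed the threshold between the labels in hepatocytes. By edgeR's quasi-likelihood test with an adjusted p under 0.05 over all genes tested, 0 of 10 members and 0% of 11548 genes were called. At an unadjusted p under 0.05, 2 members were lower, against 4.69% of all genes, and DESeq2 called 1 lower, against 0.289%. Mup16, a near-identical member of low level, had 40.9 and 38.9 CPM in WT and 10.2 and 11.1 CPM in KO, so that the groups did not overlap. Its log2 fold change was -1.84 (SE 0.21), with an adjusted p of 0.478 in edgeR, equal to the smallest of any gene in this comparison, and of 7.38e-05 in DESeq2. Mup11 differed by -3.16 (SE 1.08, edgeR adjusted p = 0.700). The median log2 fold change of the 10 members was -0.33, beside -0.02 over all genes. Mup7, Mup11 and Mup16 were lower and Mup10 higher in KO without overlap of the CPM, which is 3 of 10 lower and 1 of 10 higher beside 23.2% and 16.4% of all genes tested.

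In the other cell types the 10 genes were found at a fraction of their hepatocyte level, and within each of these cell types the libraries ranked in the same order by the summed Mup genes as by the hepatocyte markers. In ECs their sum was 1055 and 1715 CPM under the WT label and 334.1 and 333.8 CPM under the KO label, or 9.80%, 15.9%, 3.11% and 3.10% of the mean of the WT hepatocytes. Kupffer cells had 511 and 682 CPM in WT and 805 and 819 CPM in KO, between 4.75% and 7.61% of that mean. HSCs had 314 and 513 CPM in WT and 70.4 and 109 CPM in KO, between 0.655% and 4.76%. In bulk libraries, fewer cells of a type and less RNA per cell cannot be told apart.

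The median of 15 hepatocyte markers, such as Alb, Apoa1 and Ttr, ran alongside. As a percent of its level in WT hepatocytes it was 10.9 and 24.6 in the WT-labelled and 2.46 and 1.97 in the KO-labelled ECs, 5.24 and 8.18 against 9.14 and 11.9 in Kupffer cells, and 3.41 and 7.33 against 0.532 and 1.21 in HSCs. None of the 15 markers was at 0 in any library. Per 1000 reads on these markers, the summed Mup reads numbered 43.4 to 77.7 in hepatocytes, 45.5 to 55.3 in Kupffer cells and 43.5 to 82.2 in HSCs. ECs had 59.3 and 45.5 under the WT label and 80.3 and 106.5 under the KO label. Both KO-labelled EC libraries were above every hepatocyte library, and so was KO-labelled HSC library 8 at 82.2. How far hepatocyte RNA accounts for the Mup reads in sorted cells was not tested.

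**Figure D3:**
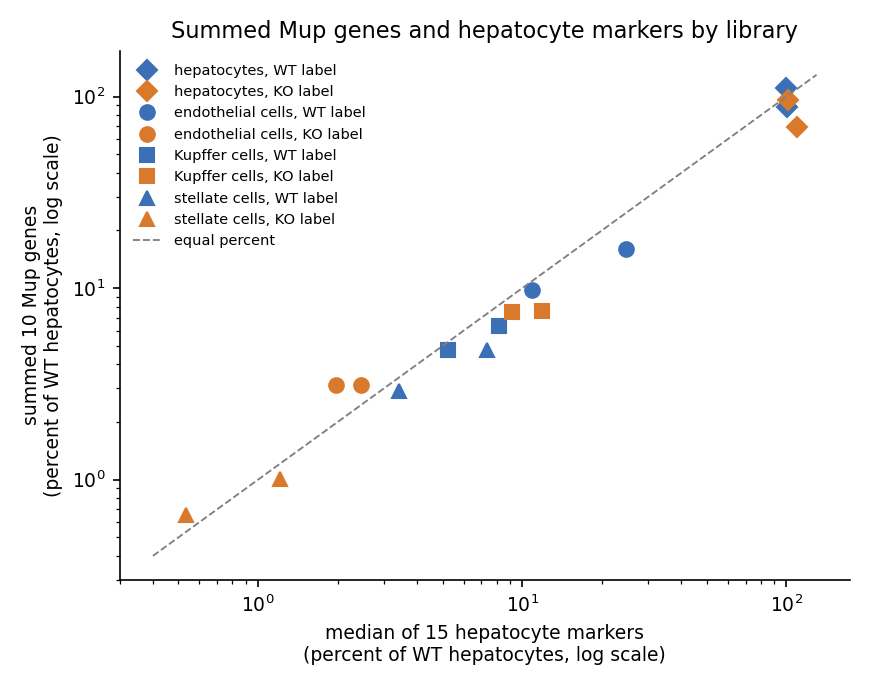
Summed CPM of the 10 Mup genes against the median of 15 hepatocyte markers, both as a percent of the mean of the WT hepatocyte libraries (log axes), with 1 point per library; the dashed line marks equal percentages. The KO-labelled EC libraries lie above the line, at 3.11% and 3.10% of the Mup level with 2.46% and 1.97% of the marker level. KO-labelled HSC library 8 (0.655% with 0.532%) and WT-labelled hepatocyte library 33 (111% with 99.8%) lie above it as well.

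Over the 16 libraries, the genes whose log2 CPM followed the summed Mup genes most closely were Serpina11 (r = 0.997) and Serpina1a (r = 0.996), protease inhibitors of the alpha-1-antitrypsin family, the glutathione transferase Mgst1, Mettl7b and the glucuronosyltransferase Ugt2b5 (each r = 0.995). The same cell types drive all of these values, and 10.7% of 5723 genes with at least 10 CPM in hepatocytes had an r over 0.9.

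The make-up of the Mup reads was not the same in every library. Mup3 held 57.3% to 76.1% of them in hepatocytes and 52.0% to 85.0% in the other 12 libraries. Mup7 held 8.08% and 7.87% in WT and 5.96% and 3.20% in KO hepatocytes. In ECs it held 4.80% and 1.28% in the WT-labelled libraries 34 and 38, and 10.7% and 16.5% in the KO-labelled libraries 6 and 46. In these 2 KO-labelled EC libraries the share of Mup7 was thus above that in every hepatocyte library. The share of Mup11 was 0.284% and 0.0770% in the WT-labelled and 1.31% and 3.71% in the KO-labelled ECs, while that of Mup5 was 1.77% and 1.96% in WT and 0.0208% and 0% in KO. Of the 4802 Mup reads of library 46, the 0 reads of Mup5 allow a share of up to 0.0799% (Wilson interval at 95%, counting error only).

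**Figure D4:**
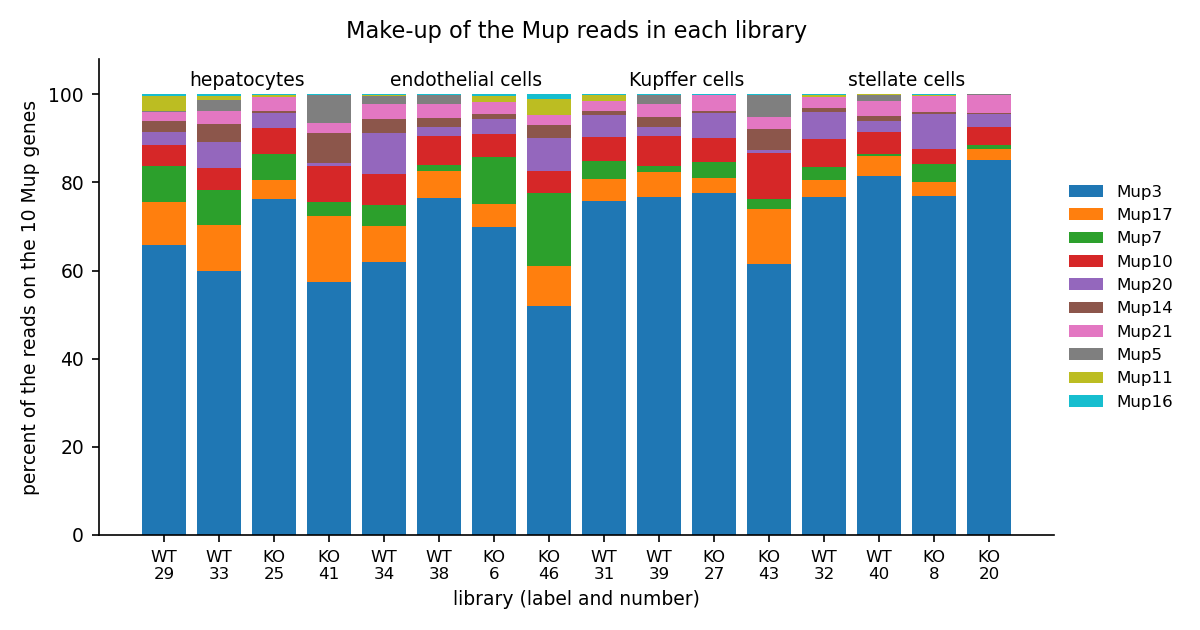
Share of each Mup gene in the reads on the 10 genes, in percent, with 1 bar per library, ordered by cell type and label. Mup3 is the largest part of every bar, and Mup7 is wider in the KO-labelled EC libraries (10.7% and 16.5%) than in the WT-labelled ones (4.80% and 1.28%).

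ECs were the only cell type in which members passed the threshold of edgeR. In ECs, 5 of 10 members were lower under the KO label and none was higher, beside 1.97% and 0.116% of 14631 genes tested, and DESeq2 called 7 lower, beside 5.51%. Mup3 fell from 654 and 1311 CPM to 234 and 174 CPM, a log2 fold change of -2.27 (SE 0.37, adjusted p = 0.0409 in edgeR). Mup10 had 73.2 and 114 CPM in WT and 17.8 and 17.2 CPM in KO (-2.42, SE 0.28, edgeR adjusted p = 0.0290). Mup21, nearest in sequence to Mup3, had 35.2 and 54.3 CPM in WT and 9.54 and 7.51 CPM in KO (-2.39, SE 0.33, edgeR adjusted p = 0.0300). Mup17 had 85.8 and 107 CPM in WT and 16.9 and 30.3 CPM in KO (-2.01, SE 0.35, edgeR adjusted p = 0.0492). For these 4 genes the groups did not overlap and both KO-labelled libraries were low.

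Mup5, a member also known from salivary glands, had 268 and 432 counts in the WT-labelled and 1 and 0 counts in the KO-labelled ECs. The WT-labelled libraries thus held 740 times as much per read on genes, with a 95% counting interval from 132 to 29256 for 700 against 1 reads. Its edgeR adjusted p was 0.0190. In hepatocytes and Kupffer cells, by contrast, Mup5 was high in 1 library and low in the other under each label. The high EC libraries are numbered 34 and 38, and in every library numbered 33 to 43, whatever its cell type and label, Mup5 held 1.41% to 6.36% of the Mup reads, against at most 0.190% in every other library. In ECs the label and this split by number fall together and cannot be told apart, and what the numbers stand for is not given in the sources used here. Per 1000 hepatocyte marker reads, Mup5 had 1.05 and 0.891 reads in the WT-labelled and 0.0167 and 0 in the KO-labelled ECs, where it was the only member of the 10 that was lower without overlap on this scale (beside 1.23% of all genes tested).

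The other 5 members did not pass the threshold in ECs. Mup14 had 34.8 and 37.9 CPM in WT and 3.48 and 10.0 CPM in KO (log2 fold change -2.40, SE 0.54, edgeR adjusted p = 0.0984), and Mup20 had 97.3 and 32.5 CPM in WT and 11.3 and 24.5 CPM in KO (-1.85, SE 0.62, edgeR adjusted p = 0.242). Mup7 and Mup16 overlapped between the labels. Mup7 stood at 50.6 and 21.9 CPM in WT and at 35.7 and 55.0 CPM in KO, and Mup16 at 1.88 and 1.09 CPM in WT and at 1.18 and 3.41 CPM in KO. Mup11 had 3.00 and 1.32 CPM in WT and 4.39 and 12.4 CPM in KO, a log2 fold change of 1.97 (SE 0.77, edgeR adjusted p = 0.307), and was the only member with a higher level in both KO-labelled libraries. By CPM, 7 of 10 members were lower and 1 higher without overlap, beside 24.1% and 24.2% of all genes tested.

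The calls in ECs rest on both KO-labelled libraries, and the direction depends on the scale. Leaving out a library leaves 1 in its group, so that only fold changes are given for such fits. By CPM, the log2 ratio of the summed members then ranged from -2.36 to -1.66. The log2 ratio of the summed members was -2.05 by CPM but 0.83 per hepatocyte marker read. On the latter scale 6 of 10 members (Mup3, Mup7, Mup10, Mup11, Mup16 and Mup21) were higher under the KO label without overlap, beside 90.1% of all genes tested. All 15 hepatocyte markers were called lower in the same ECs, beside 1.97% of all genes tested. Their log2 fold changes ran from -3.22 (Apoa2) to -2.72 (Apoh), and the median of the 10 members was -2.14.

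In HSCs, 7 members were tested, since Mup5, Mup11 and Mup16 did not pass edgeR's filter on low counts. Mup3 had 240 and 418 CPM in WT and 54.3 and 92.7 CPM in KO (log2 fold change -2.16, SE 0.41, edgeR adjusted p = 0.319). Mup10 had 20.0 and 25.4 CPM in WT and 2.42 and 4.56 CPM in KO (-2.70, SE 0.48, edgeR adjusted p = 0.309). Both were lower in both KO-labelled libraries, yet edgeR called 0 of 7 members and 0% of 14390 genes. At an unadjusted p under 0.05, 6 members were lower, beside 7% of all genes, and DESeq2 called 5 of the 9 members it gave an adjusted p lower (Mup3, Mup10, Mup14, Mup17 and Mup20), beside 2.47%. By CPM, 9 of 10 members were lower in KO without overlap, with Mup5 as the exception. All 7 tested members were among them, beside 19.3% of all genes tested. The untested Mup11 (26 and 4 counts in WT, 1 and 0 in KO) and Mup16 (6 and 3 in WT, 2 and 0 in KO) rest on few reads. Mup5 had 0 and 113 counts in WT and 0 and 3 counts in KO, so that WT library 40 alone held most of its reads.

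In Kupffer cells no member was called by edgeR or DESeq2, and none had an unadjusted p under 0.05 in either tool. Over all genes, edgeR called 0% of 13867 (5.09% at an unadjusted p under 0.05) and DESeq2 0.51%. Mup3 had 387 and 523 CPM in WT and 624 and 503 CPM in KO (log2 fold change 0.26, SE 0.28), and the labels overlapped. Mup21 had 11.9 and 19.7 CPM in WT and 28.1 and 21.9 CPM in KO (0.62, SE 0.38) and was the only member whose groups did not overlap, beside 20.5% of all genes tested that were higher without overlap. Mup5 had 1 and 216 counts in WT and 4 and 622 counts in KO, a low and a high library under each label as in hepatocytes. The median over the 10 members was 0.60, beside -0.02 over all genes.

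**Figure D5:**
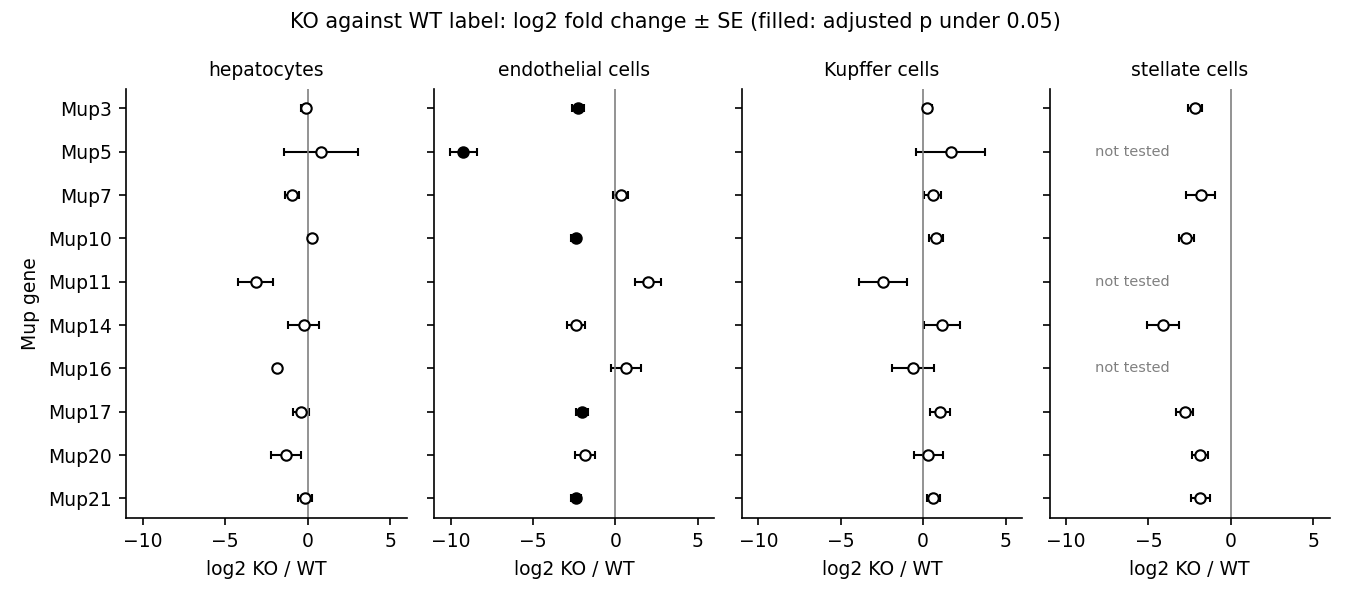
Log2 fold change of KO against WT label with its standard error for each Mup gene in the 4 cell types, filled where the edgeR adjusted p was under 0.05. The 5 filled points are Mup3, Mup5, Mup10, Mup17 and Mup21 in ECs, where the 10 members run from -9.22 to 1.97. The 7 members tested in HSCs run from -4.11 to -1.84, and none passed the threshold.

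The 16 libraries were fitted as independent, although the sources used here do not say which of them share a liver. An interaction term over all 16 libraries tested whether the KO against WT difference was of another size in one cell type than in another. Between ECs and Kupffer cells it differed for 2 of 10 members, beside 2.06% of 17214 genes. They were Mup10, with a difference of -3.19 in log2 fold change (SE 0.57, edgeR adjusted p = 0.0204), and Mup21, with -3.04 (SE 0.67, edgeR adjusted p = 0.0408). Between HSCs and Kupffer cells it differed for Mup10 alone (-3.48, SE 0.58, edgeR adjusted p = 0.0263), beside 0.593% of all genes. In the other 4 pairs edgeR called no member. Between ECs and HSCs, 1 member had an unadjusted p under 0.05, beside 4.85% of all genes, and DESeq2 called 0, beside 0.565% (0.0349% of all genes were called by edgeR). Between ECs and hepatocytes 5 members had an unadjusted p under 0.05, beside 9.12% of all genes, and DESeq2 called 3, beside 4.14% (0.0697% by edgeR). Between HSCs and hepatocytes 4 members had an unadjusted p under 0.05, beside 7.16%, and DESeq2 called 2, beside 2.22% (0.0755% by edgeR). Between Kupffer cells and hepatocytes 0 members had an unadjusted p under 0.05, beside 8.17%, and DESeq2 called 0, beside 1.05% (0.0116% by edgeR). Mup10, the member called in both pairs with Kupffer cells named above, was lower under the KO label in ECs and HSCs. In WT against KO it stood at 465 and 602 against 605 and 610 CPM in hepatocytes. In Kupffer cells it stood at 28.2 and 46.9 against 44.1 and 84.8 CPM. Not every member moved like Mup10, since Mup7, Mup11 and Mup16 had a higher mean CPM under the KO label in ECs.

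Other genes of the pathways around the family were counted from lists. Of 10 genes of growth hormone signalling, which maintains Mup transcription, edgeR called 0 of the 9 tested in hepatocytes (0 at an unadjusted p under 0.05 and 0 by DESeq2). The growth hormone receptor Ghr differed by -0.10 (SE 0.21), its target Igf1 by 0.18 (SE 0.23) and Igfals, which binds IGF complexes in the blood, by 0.35 (SE 0.20), each on the log2 scale. In ECs 1 of the 10 was called, beside 1.97% of all genes tested that were called lower. It was Igfals at -3.11 (SE 0.48, edgeR adjusted p = 0.0361), in the libraries with less of the hepatocyte markers. Of the 10, 5 were lower in ECs at an unadjusted p under 0.05, beside 10.1% of all genes. DESeq2 called 4 of them lower, beside 5.51%. The 12 male-biased liver genes had a median of -0.64 in hepatocytes with 0 called by edgeR or DESeq2. At an unadjusted p under 0.05, 2 were lower, beside 4.69% of all genes. The 3 of them with the highest CPM in hepatocytes were Serpina1e at -0.01 (SE 0.20), Selenbp2 at -0.83 (SE 0.54) and Cyp2d9 at -0.52 (SE 0.26), none of which was among those 2. The 8 tested of 12 female-biased genes had a median of 0.58 with 0 called by edgeR or DESeq2. At an unadjusted p under 0.05, 2 were higher, beside 2.42% of all genes. Cyp2b9 was among these 2, at 1.66 (SE 0.59, edgeR adjusted p = 0.700). Next to it by CPM in hepatocytes were Cyp3a44 at 0.38 (SE 0.25) and Cyp3a16 at 0.08 (SE 0.27). The 8 tested female-biased genes ran from -1.04 to 4.46.

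In ECs 3 of the 12 male-biased genes were called lower, beside 1.97% of all genes tested. They were the cytochrome Cyp2d9 (-1.93, SE 0.21), the organic anion transporter Slco1a1 (-3.47, SE 0.55) and the complement component C8b (-2.79, SE 0.36). Of the 12, 11 were lower at an unadjusted p under 0.05, beside 10.1% of all genes, and DESeq2 called 8 lower, beside 5.51%. Of 4 tested female-biased genes edgeR called 0. At an unadjusted p under 0.05, 3 of these were lower, beside 10.1% of all genes. DESeq2 called 2 female-biased genes lower, beside 5.51%. Of 10 other lipocalins and related carriers, 8 were tested in ECs and 6 were called lower, beside 1.97% of all genes tested. They were the retinol carrier Rbp4 (-3.12), Apom (-3.19), Orm1 (-2.40), Ptgds (-4.12), Ambp (-2.75) and C8g (-2.59). Ambp is also among the 15 hepatocyte markers, all of which were called lower in the same ECs (median -2.93). The part of hepatocyte RNA in the calls of these lists in ECs was not tested. In hepatocytes 0 of the 9 tested carriers were called (0 at an unadjusted p under 0.05, 0 by DESeq2), and their median was 0.13. Of 11 hepatocyte transcription factors, edgeR called 0 in hepatocytes (0 at an unadjusted p under 0.05, 0 by DESeq2). In ECs edgeR called 0 of 10 tested. At an unadjusted p under 0.05, 6 of these were lower in ECs, beside 10.1% of all genes, and DESeq2 called 5 lower, beside 5.51%. Hnf4a was at -0.62 (SE 0.36) in hepatocytes and at -2.76 (SE 0.63) in ECs. In HSCs edgeR called 0 genes of any list. At an unadjusted p under 0.05, beside 7% of all genes, it had lower there 3 of 10 tested genes of growth hormone signalling, 6 of 11 male-biased and 2 of 6 female-biased genes, 4 of 8 carriers, 4 of 9 transcription factors and all 15 markers. DESeq2, beside 2.47% of all genes, called lower 2 genes of growth hormone signalling, 3 male-biased and 0 female-biased genes, 3 carriers, 2 transcription factors and 14 markers. In Kupffer cells edgeR and DESeq2 called 0 genes of any list. At an unadjusted p under 0.05, beside 3.35% of all genes, edgeR had higher there 2 of 10 tested genes of growth hormone signalling, 1 of 15 markers and 1 of 10 transcription factors.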

How the data were processed

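RNA was sequenced from 16 libraries of 4 liver cell types and 2 genotype labels (n = 2 per group). The deposited values are raw counts: the authors counted reads per Ensembl gene with HTSeq 0.9.1, after Trimmomatic 0.32 and HISAT2 2.1.0 on GRCm38, as the submitters' processing notes list them. The annotation release, the strand setting and the handling of reads aligned to several places are not given in the sources used here. Library totals ranged from 12872706 to 15690506 reads, and the 5 summary lines of each table were left out of them.

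The 10 members, the gene lists and the tests were chosen with earlier results of these data known. Members were matched by symbol. Positions, exon lengths and shared stretches came from GENCODE release M21 (98.9% of identifiers matched), and coding sequences were aligned with MAFFT 7.526. Counts were divided by the total of the library for CPM, and scaled per exon length for TPM. The KO and WT labels of each cell type were compared in R 4.3.3 by edgeR 4.0.16 (filterByExpr, TMM, quasi-likelihood test, Benjamini-Hochberg adjusted p under 0.05 over all genes tested), and differences between cell types as interactions over all 16 libraries. The scripts were checked on simulated data. With 2 against 2 libraries an exact permutation test cannot go below 0.333, so that none was made. Replicates differed by more than sampling noise. Alternatives were DESeq2 1.42.0, RLE size factors, other filters on low counts, all 16 libraries in one fit, library sizes without Mup rows, an adjusted p under 0.1, leaving out each replicate, and for sums and levels TMM-scaled CPM, hepatocyte marker reads, all Mup rows or all 4 hepatocyte libraries as the base. The genes named are the 10 members, other Mup rows with at least 10 counts in a hepatocyte library, list genes past the threshold or otherwise up to 3 with the highest hepatocyte CPM, and the 5 genes most alike. Mup22 was not used here.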

Additional observations from a re-analysis of the deposited data

Results flagged for a closer look

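The label difference of 3 results differed between cell types by edgeR's test of the interaction over 16 libraries. Between ECs and Kupffer cells, the log2 fold change of Mup10 differed by -3.19 (SE 0.57, adjusted p = 0.0204) and that of Mup21 by -3.04 (SE 0.67, adjusted p = 0.0408). Between HSCs and Kupffer cells, Mup10 differed by -3.48 (SE 0.58, adjusted p = 0.0263). The hepatocyte markers moved the same way, with a median log2 fold change of -2.93 in ECs, -2.54 in HSCs and 0.56 in Kupffer cells, and their part in these results was not tested. Of the 50-base stretches of Mup10, 23.5% occur in no other gene, and of those of Mup21 80.7%.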

How the results depend on the processing

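In ECs edgeR called 5 members lower, beside 305 genes called in either direction. The count stayed within 1.5 times under DESeq2 (7, beside 996 genes), RLE size factors (5, beside 302) and no filter (7, beside 1259). It did so too with at least 10 counts in every library (5 of 9 tested, beside 489). Library sizes without Mup rows gave 5, beside 305, and an adjusted p under 0.1 gave 6, beside 529. With all 16 libraries in one fit it was 3, beside 423 genes. Leaving out a replicate left 1 library in its group, and only fold changes are given for it. In hepatocytes the count of 0 became 1 with DESeq2, beside 31 genes, and 4 without a filter, beside 227 genes. In HSCs 0 became 5 with DESeq2 (beside 401 genes), 6 without a filter (beside 663) and 2 in the fit of all 16 libraries (beside 178). Kupffer cells stayed at 0 under all these settings, beside 75 genes with DESeq2 and 159 without a filter. The count of interactions rose with DESeq2 from 2 to 4 between ECs and Kupffer cells (2.06% to 6.98% of all genes). It rose from 0 to 3 between ECs and hepatocytes (0.0697% to 4.14% of all genes). Between HSCs and Kupffer cells it rose from 1 to 5 (0.593% to 5.27%), and between HSCs and hepatocytes from 0 to 2 (0.0755% to 2.22%). RLE size factors changed none of these counts. The cause of these changes was not tested.

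The log2 ratio of the summed members turned from -2.05 to 0.83 in ECs, from -2.20 to 0.36 in HSCs and from 0.44 to -0.0786 in Kupffer cells when taken per hepatocyte marker read, and was -0.28 and -0.37 in hepatocytes. Leaving out a replicate gave -2.36 to -1.66 in ECs, -2.55 to -1.80 in HSCs, 0.25 to 0.67 in Kupffer cells and -0.53 to -0.06 in hepatocytes. TMM scaling over all 16 libraries lowered the level in percent of WT hepatocytes from 12.9 to 5.09 in WT ECs, 3.10 to 1.23 in KO ECs, 5.54 to 2.76 in WT and 7.54 to 3.68 in KO Kupffer cells, and 3.84 to 1.83 in WT and 0.834 to 0.392 in KO HSCs. With all 4 hepatocyte libraries as the base, KO ECs were at 3.40 and KO Kupffer cells at 8.27.

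Of 410 alternatives for single members and for the counts of members without overlap, 17 changed the sign of a member. All of them came on leaving out a replicate, for members not past the threshold with all replicates. Over these, the log2 fold change ranged in ECs from -0.17 to 1.10 for Mup7 and -0.38 to 1.25 for Mup16, in hepatocytes from -0.53 to 0.22 for Mup3, -5.66 to 6.68 for Mup5, -2.62 to 0.61 for Mup14, -1.30 to 0.15 for Mup17 and -0.69 to 0.39 for Mup21, and in Kupffer cells from -4.69 to 8.02 for Mup5, -1.56 to 2.04 for Mup14, -0.28 to 1.67 for Mup17 and -1.71 to 1.09 for Mup20. The scale per hepatocyte marker read for single members was chosen after seeing the data. No paired analysis was made, because the sources used here do not say which libraries share a liver. The groups share no replicate numbers, which does not show that they share no liver. At this depth, levels under 0.191 to 0.233 CPM cannot be shown. Mup5 was under 3 counts in both KO-labelled EC libraries, Kupffer cell library 31 and HSC libraries 32 and 8, Mup11 in Kupffer cell library 43 and both KO-labelled HSC libraries, Mup16 in both KO-labelled HSC libraries and Mup14 in HSC library 20.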

Other observations

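The family rows outside the 10 members held further values. Mup13, a gene of the central set, had 963 and 1676 CPM in WT and 682 and 1551 CPM in KO hepatocytes, and its EC values were 106 and 129 CPM in WT and 27.6 and 35.8 CPM in KO. Of the 11 of these rows tested in ECs, edgeR called 4 lower, beside 1.97% of all genes tested, namely Mup13 (log2 fold change -1.88, adjusted p = 0.0300), Mup6 (-2.08, adjusted p = 0.0478), Mup-ps22 (-1.99, adjusted p = 0.0300) and Mup-ps18 (-2.25, adjusted p = 0.0353). The pseudogene Mup-ps22 had 66.3 to 72.3 reads per 100 reads of Mup13 in the 4 hepatocyte libraries and 75.5 to 99.2 in the other 12 libraries. Whether its reads come from transcripts of other Mup genes was not tested.

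The share of Mup5 in the Mup reads formed a low and a high range that crossed cell types and labels. By the number in the label, it was 0.0208% in library 6, 0% in 8, 0.190% in 20, 0.0281% in 25, 0.0328% in 27, 0.0274% in 29, 0.0131% in 31, 0% in 32, 2.37% in 33, 1.77% in 34, 1.96% in 38, 2.07% in 39, 1.41% in 40, 6.36% in 41, 5.14% in 43 and 0% in 46. The libraries numbered 33 to 43 held between 1.41% and 6.36%, and all others at most 0.190%. The pseudogene Mup-ps17 had 416, 376 and 255 counts in the hepatocyte libraries 29, 33 and 25 and 0 counts in library 41, in which Mup5 was highest. Mup5 had 82.9% of its 50-base stretches to itself. What the numbers in the labels stand for is not given in the sources used here.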
